A study of Caenorhabditis elegans with 6 samples.

Results

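The genes described here are hlh-30 and 9 genes of the autophagy machinery of Caenorhabditis elegans (unc-51, bec-1, atg-9, atg-18, atg-7, atg-3, lgg-1, lgg-2 and sqst-1). They were taken by name from a table of 25212 genes, and each of the 10 names matched 1 row. RNA of whole animals of the wild-type strain N2, selected for poly(A) tails, was sequenced in 6 libraries. The group ASP (3 libraries) was given aspartame, a dipeptide sweetener, at 100 µM, and the group Control (3 libraries) is labelled only as control. The sources used here give neither age, sex nor the number of animals per library, nor do they say whether the sequenced animals had met Pseudomonas aeruginosa, the bacterium of the study's immunity test. The libraries of each group are numbered 1 to 3, and what a number stands for is not stated. In bulk RNA of whole animals, a change in RNA per cell and a change in the number of cells that hold it cannot be told apart.

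Autophagy encloses cytoplasm and damaged organelles in a double membrane, the autophagosome, and delivers them to the lysosome for breakdown. HLH-30 is the worm counterpart of the mammalian transcription factor TFEB. It enters the nucleus on starvation or infection and switches on autophagy and lysosome genes, and worms without it survive bacterial infection less well. The machinery it acts on runs from a starter kinase (UNC-51) and a lipid kinase complex (with BEC-1), through proteins that supply and mark the growing membrane (ATG-9, ATG-18), to the enzymes (ATG-7, ATG-3) that attach the ubiquitin-like proteins LGG-1 and LGG-2 to it, and to the adaptor SQST-1, which brings in tagged cargo. Much of autophagy is controlled through proteins and their location, which RNA levels do not measure.

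Total counts per library were 53558562 to 63581942, genes for ribosomal RNA took 3.09% to 6.82% of them, and each member had at least 1515 counts in every library. Libraries with the same number deviated from their group means together (correlations across genes of 0.524 to 0.822, and at most 0.228 between unlike numbers). Those numbered 3 stood apart from the rest. Their 11 molting genes summed to 398 (ASP) and 299 (Control) FPKM, against 77.8 to 193 in the other 4 libraries, and their 6 yolk protein (vitellogenin) genes to 922 and 999, against 2547 to 3108. FPKM, the unit of all levels below, is fragments mapped to a gene, scaled to transcript length and to the depth of the library.

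The levels of the 10 genes spanned from 10.9 to 501 FPKM in the mean of the 6 libraries. All 10 passed the minimum mean of 1 FPKM, which left 13790 genes to be tested, with a median of 13.1 FPKM. lgg-1 stood alone at the top, higher than 98.2% of the tested genes, and took 65.5% to 68.9% of the summed FPKM of the 10 genes in each library. The next were lgg-2 (59.8), atg-18 (40.4), atg-3 (32.0), hlh-30 (28.7), bec-1 (20.6), sqst-1 (19.9), atg-7 (13.5), unc-51 (11.9) and atg-9 (10.9). Neighbours in this order overlapped in their ranges over the libraries, except lgg-1 with lgg-2, hlh-30 with bec-1 and sqst-1 with atg-7. The gene-level table does not separate isoforms, of which the Ensembl annotation lists 13 transcripts for hlh-30 and 1 or 2 for each of the others.

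**Figure D1:**
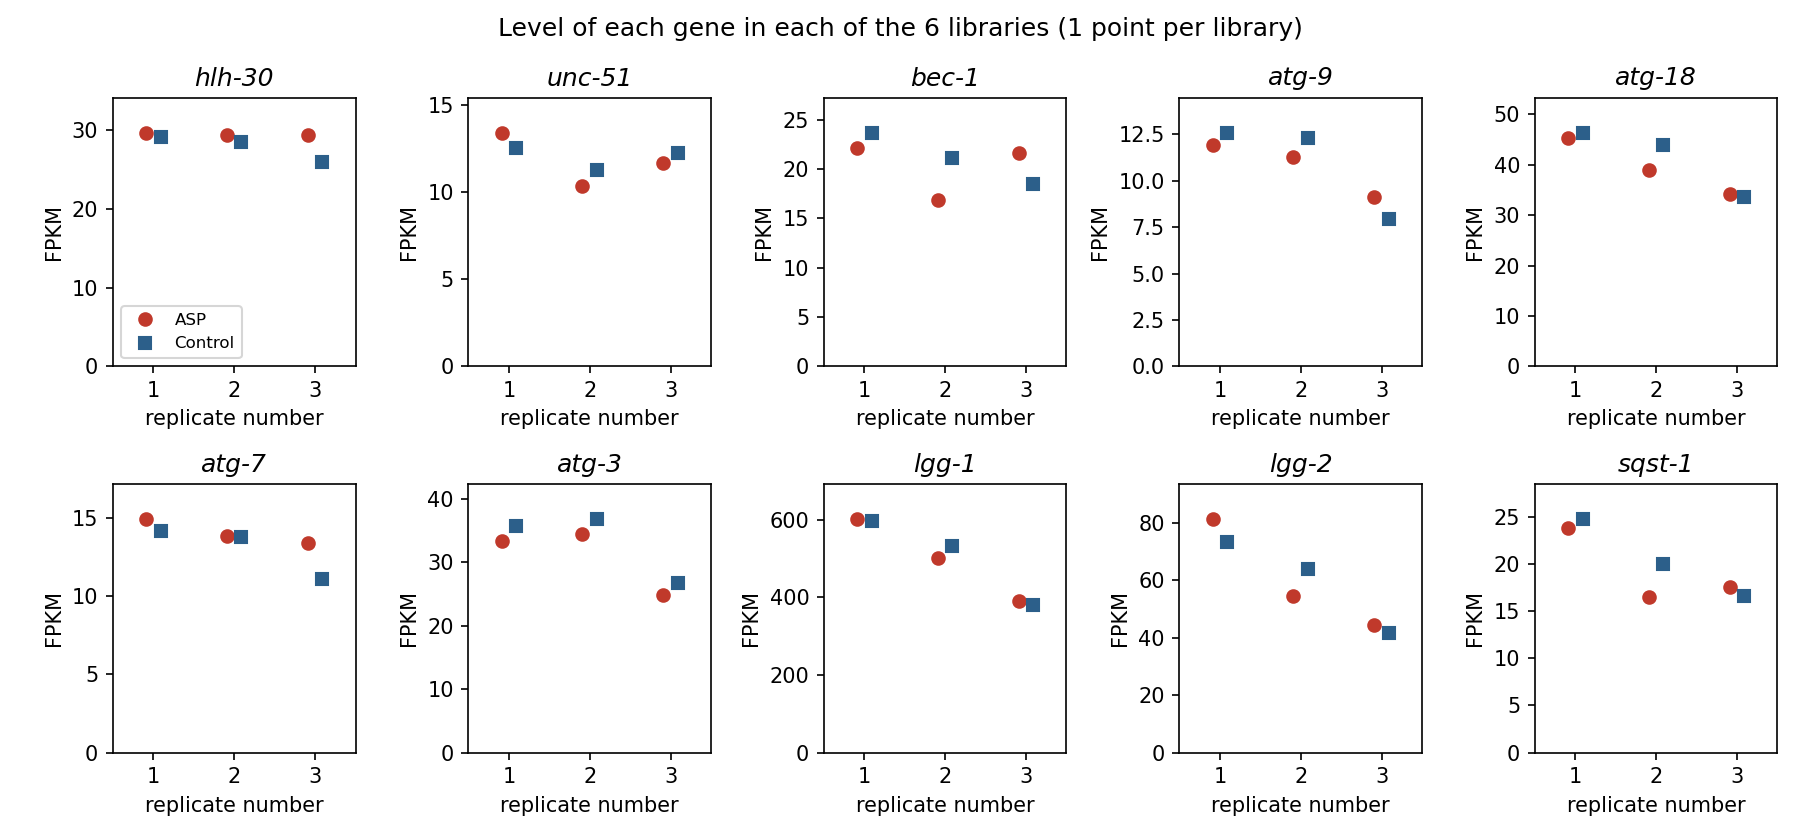
FPKM (vertical axis, from 0) of each of the 10 genes in the 6 libraries, by replicate number (horizontal axis), with ASP as circles and Control as squares, 1 point per library. For lgg-1 circles and squares of the same number lie close together, and for bec-1 at numbers 2 and 3 they lie apart. Both libraries numbered 3 lie below all others for lgg-1, lgg-2, atg-3, atg-7, atg-9 and atg-18.

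The comparison of ASP with Control asks whether aspartame changed the RNA of these genes. None of the 10 passed the test: 0 members were called in edgeR, with or without the replicate number as a block, and 0 had an unadjusted p under 0.05 (adjusted p 0.9999 and 0.997). The background was the same, with 0% of the 13790 tested genes called in either direction in both fits, and 0.450% and 2.68% of them at an unadjusted p under 0.05. The median half-width of the 95% interval over all tested genes was 0.49 on the log2 scale without the block and 0.26 with it. With the block the intervals of the 10 members reached from a fall of 19.8% (bec-1) to a rise of 22.1% (atg-7). DESeq2 and limma on FPKM, with and without the block, also called 0 members, and 0 had an unadjusted p under 0.05. Fitted differences, given as log2(ASP/Control), ran from −0.12 for atg-3 to 0.10 for atg-7. Their median was −0.04, against 0.00022 over all tested genes, and 8 of the 10 lay below 0. That count fell to 4 without ASP 3 or without Control 1, and to 5 without ASP 2 or, with the block, without both libraries numbered 2.

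hlh-30, the regulator (gene 177157, chromosome IV, 4014795 to 4034784, minus strand, build WBcel235), had 29.65, 29.4 and 29.4 FPKM in ASP 1, 2 and 3. In Control 1, 2 and 3 it had 29.1, 28.5 and 26.0 FPKM. All ASP libraries were above all Control libraries, but the gap between the nearest of them, ASP 3 and Control 1, was smaller than the spread within Control. hlh-30 was the only member whose groups did not overlap, and 3.39% of all tested genes showed the same. On CPM (counts scaled to library size, here with edgeR's TMM factors), a setting chosen after seeing the data, its groups again did not overlap, as for 3.07% of genes, with 102.1 in the lowest ASP library and 101.8 in the highest Control library. The means were 29.5 ± 0.12 and 27.9 ± 1.65 FPKM (SD, n = 3 each). The fitted log2 difference was 0.07 (SE 0.08, 95% interval −0.12 to 0.25), and an exact two-sided permutation test gave p = 0.1, the smallest that 3 against 3 libraries allow. With the block the interval was −0.08 to 0.21, so that a rise of hlh-30 by up to 15.9% or a fall of up to 5.56% was within it. The gene overlaps the noncoding RNA genes F35F11.4 on the same strand and W02C12.4 on the other strand, and whether counting used strand is not stated in the sources used here.

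unc-51, which encodes the kinase that starts autophagosome formation (ULK1 in mammals; gene 180311, chromosome V, 19995986 to 20004485, minus strand), had 13.4, 10.4 and 11.7 FPKM in ASP and 12.55, 11.3 and 12.3 in Control. The highest and the lowest library were both ASP, and the Control values lay between them. The log2 difference was −0.05 (SE 0.13, interval −0.36 to 0.27). bec-1, the Beclin of the lipid kinase complex (gene 177345, chromosome IV, 5661141 to 5664425, minus strand), had 22.2, 16.8 and 21.6 FPKM in ASP and 23.65, 21.1 and 18.5 in Control. ASP 2 was its lowest library and the groups overlapped (−0.08, SE 0.15, interval −0.43 to 0.28). With the block and without both libraries numbered 3, bec-1 had an unadjusted p under 0.05, the only such value of any member in any setting of this comparison, and it was not called. The noncoding RNA gene T19E7.24 lies on the other strand of bec-1.

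Of the genes that supply and mark the membrane, atg-9, for the lipid-moving membrane protein that seeds the autophagosome (gene 178561, chromosome V, 349385 to 359658, plus strand), had 11.9, 11.3 and 9.14 FPKM in ASP and 12.6, 12.3 and 7.95 in Control. The libraries numbered 3 were lowest in each group, and Control held both the highest and the lowest value (log2 −0.03, SE 0.17). atg-18, for a protein that binds the lipid made by the BEC-1 complex (WIPI in mammals; gene 179246, chromosome V, 8629174 to 8631327, minus strand), had 45.2, 39.1 and 34.2 FPKM in ASP and 46.3, 44.0 and 33.6 in Control. It showed the same arrangement (−0.08, SE 0.13, interval −0.39 to 0.24).

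In the conjugation system, atg-7, for the activating enzyme (gene 178005, chromosome IV, 11078682 to 11081055, minus strand), had 14.9, 13.8 and 13.4 FPKM in ASP and 14.1, 13.8 and 11.1 in Control. Control 3 stood below the other 5 libraries (log2 0.10, SE 0.11, interval −0.16 to 0.36). atg-3, for the enzyme that hands LGG proteins to the lipid (gene 176921, chromosome IV, 1010512 to 1012502, plus strand), had 33.4, 34.5 and 24.8 FPKM in ASP and 35.8, 36.8 and 26.8 in Control. ASP was below Control at every number, by a similar amount, while both libraries numbered 3 were far lower than the rest (−0.12, SE 0.16, and SE 0.08 with the block, interval −0.30 to 0.06).

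lgg-1 (gene 174050, chromosome II, 6346960 to 6347719, minus strand), the GABARAP-like Atg8 protein that coats the autophagosome and is the usual marker of it, had 601, 501 and 390.5 FPKM in ASP and 597, 533 and 380.6 in Control. lgg-2 (gene 177989, chromosome IV, 10934196 to 10935903, minus strand), the LC3-like Atg8 protein, had 81.2, 54.6 and 44.3 FPKM in ASP and 73.1, 63.8 and 41.8 in Control. For lgg-1 the libraries of the same number lay near each other in the 2 groups, while those of lgg-2 lay further apart at numbers 1 and 2. For both genes number 1 was highest and number 3 lowest. Their log2 differences were −0.03 (SE 0.19) and −0.0039 (SE 0.26). lgg-2 had the widest interval of the 10, −0.62 to 0.61, which narrowed to −0.20 to 0.17 with the block. The level of lgg-1 was 7.40 to 9.18 times that of lgg-2 in the 6 libraries.

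sqst-1, for the cargo adaptor known as p62 in mammals (gene 178139, chromosome IV, 12034282 to 12036891, plus strand), had 23.8, 16.5 and 17.6 FPKM in ASP and 24.7, 20.0 and 16.6 in Control. The libraries numbered 1 were highest in each group and ASP 2 was the lowest of all (log2 −0.10, SE 0.18, interval −0.53 to 0.33).

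**Figure D2:**
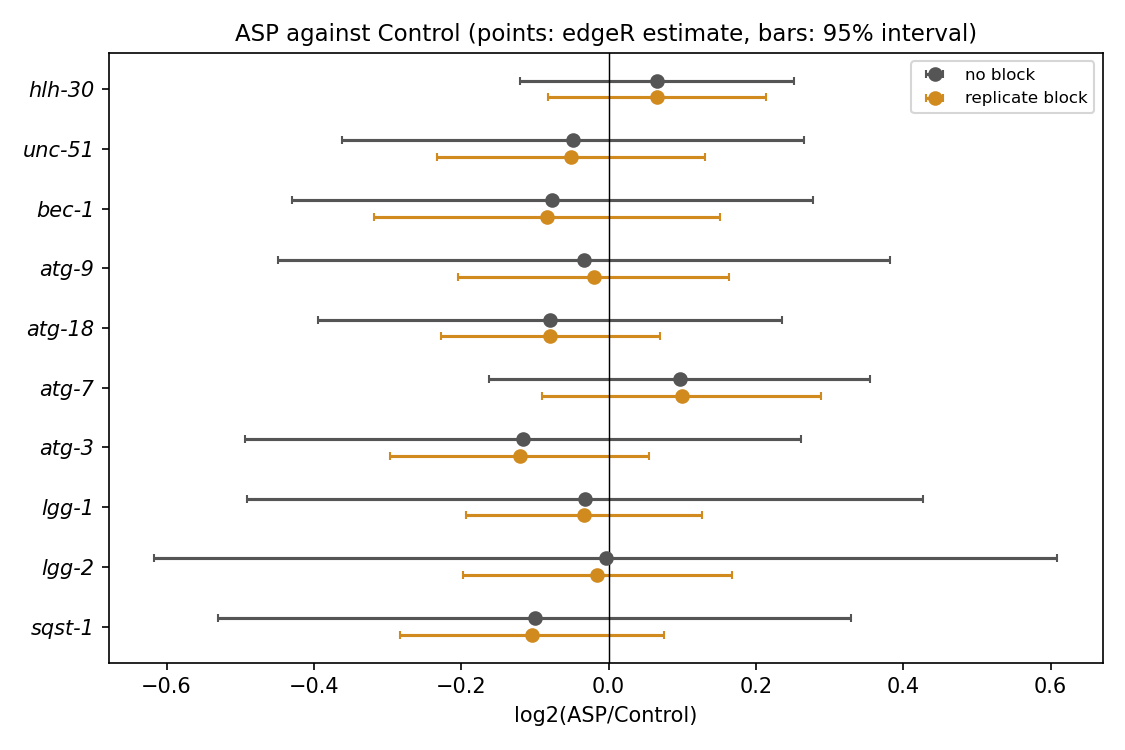
Fitted log2(ASP/Control) of the 10 genes (horizontal axis) with 95% intervals, without the replicate block (grey) and with it (orange). All 20 intervals include 0, and the widest, of lgg-2 without the block, runs from −0.62 to 0.61.

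Within the replicate numbers the direction varied from pair to pair. The median log2 FPKM ratio of ASP to Control over the 10 genes was −0.01 in number 1, −0.12 in number 2 and 0.08 in number 3, with 5, 8 and 2 genes below 0. The medians over all tested genes were 0.02, −0.03 and 0.07. Only hlh-30 and atg-7 were higher in ASP in all 3 numbers (hlh-30 by 0.03, 0.05 and 0.18, and atg-7 by 0.08, 0.0041 and 0.27), as were 12.8% of all tested genes. Only atg-3 was lower in all 3 (−0.10, −0.09 and −0.11), as were 8.88% of all tested genes. On TMM CPM these 3 genes kept their signs, though hlh-30 was close to 0 in number 1 (0.0038, 0.08 and 0.11). atg-7 stood at 0.06, 0.04 and 0.21 there, and atg-3 at −0.12, −0.06 and −0.18. On that scale atg-18 (−0.06, −0.14 and −0.04) and lgg-1 (−0.01, −0.06 and −0.03) were lower at every number too. The share of all tested genes lower at every number was not computed on TMM CPM. bec-1 moved most between pairs, from −0.33 in number 2 to 0.23 in number 3.

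**Figure D3:**
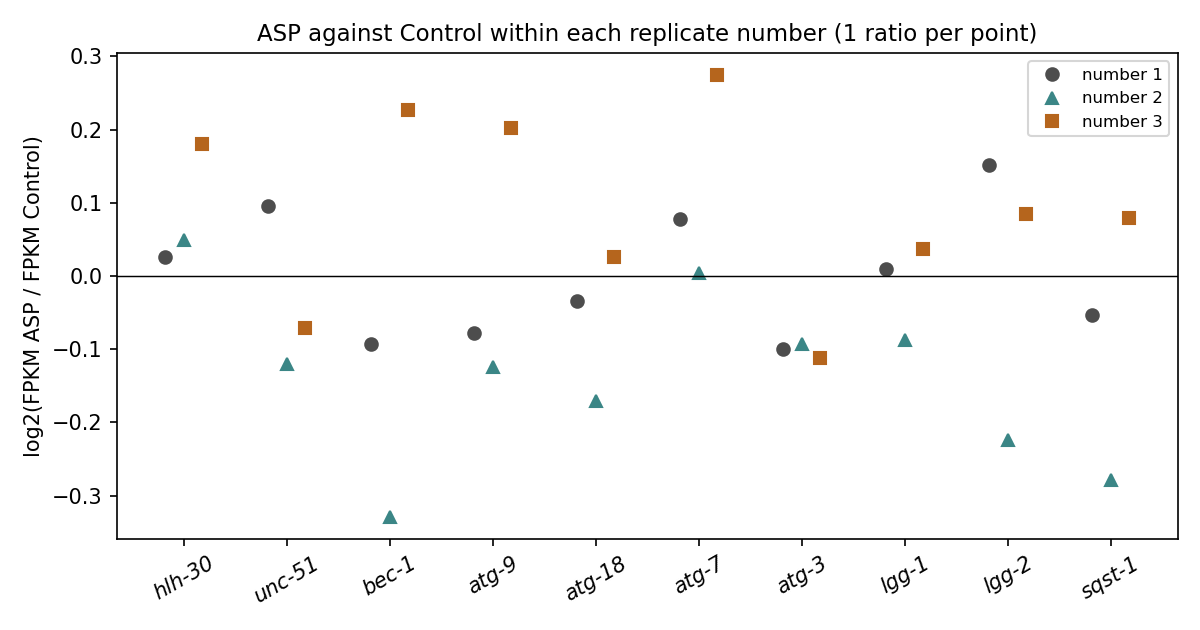
log2 ratio of ASP to Control FPKM for each of the 10 genes at replicate numbers 1 (circles), 2 (triangles) and 3 (squares), 1 ratio per point with no error. Number 2 lies below 0 for 8 genes and number 3 above 0 for 8 genes, and only hlh-30, atg-7 and atg-3 keep 1 sign.

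Members passed the test between replicate numbers, which none did between the groups. In an edgeR fit with treatment and number as terms, number 3 (2 libraries) was compared with the mean of numbers 1 and 2 (4 libraries). Of the 10 members, 5 were lower in number 3 and 0 were higher, while over all 13790 tested genes 19% were lower, 19% higher and 38% called in all. With limma on FPKM the split over all tested genes was 3469 lower and 1864 higher, and the same 5 members were called lower. The median log2 difference was −0.23 over the members and −0.01 over all tested genes. The 5 genes were lgg-2 (log2 −0.55, SE 0.09, adjusted p 0.00161), lgg-1 (−0.43, SE 0.08, adjusted p 0.00286), atg-9 (−0.40, SE 0.09, adjusted p 0.00827), atg-3 (−0.35, SE 0.08, adjusted p 0.0120) and atg-18 (−0.26, SE 0.07, adjusted p 0.0187). As a share of its level, lgg-2 fell by 31.8% and lgg-1 fell by 25.9%. They encode the 2 Atg8 proteins, the enzyme that loads them, and ATG-9 and ATG-18, which supply and mark the membrane. atg-7, for the activating enzyme of the same conjugation system, was not called (adjusted p 0.321 in edgeR). Whether the called genes share a function more than other genes do was not tested.

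hlh-30, bec-1 and unc-51 did not pass, and neither did atg-7 or sqst-1. hlh-30 stood at log2 0.02 (SE 0.07, interval −0.14 to 0.18), bec-1 at 0.04 (SE 0.11) and unc-51 at 0.11 (SE 0.08). On FPKM with limma, which moved the median of all tested genes to −0.10, hlh-30 and bec-1 turned to −0.074 and −0.054. atg-7 stood at −0.12 (SE 0.09) and sqst-1 at −0.20 (SE 0.08, adjusted p 0.0937 in edgeR). sqst-1 was called only without ASP 3 (−0.29, adjusted p 0.0438). Whether the 5 called genes differed from the other 5 was not tested.

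Both libraries numbered 3 were below the other 4 for 6 members in FPKM (lgg-1, lgg-2, atg-3, atg-7, atg-9 and atg-18), as for 35.0% of all tested genes. On TMM CPM this held for 5 of them, without atg-7, and for 27% of genes. A ratio to hlh-30 within each library does not depend on the scaling. lgg-1 was 20.3, 17.0 and 13.3 times hlh-30 in ASP 1, 2 and 3, and in Control 1, 2 and 3 it was 20.5, 18.7 and 14.65 times. For lgg-2 the ratio was 2.74, 1.85 and 1.51 in ASP and 2.51, 2.24 and 1.61 in Control. Of the 9 genes, 6 had both of their number 3 ratios below the other 4, as did 27.3% of the 13789 tested genes other than hlh-30, with the mean ratio 0.673 times as high for lgg-2, 0.731 for lgg-1, 0.748 for atg-9, 0.775 for atg-3, 0.822 for atg-18 and 0.908 for atg-7. For sqst-1, bec-1 and unc-51, whose number 3 ratios overlapped the others, it was 0.859, 1.01 and 1.07 times as high. Ratios to hlh-30 were also chosen after seeing the data.

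The calls in number 3 rested on few libraries. atg-18 was not called without ASP 1 (adjusted p 0.0853 in edgeR), Control 1 (0.0639), Control 2 (0.0595) or Control 3 (0.0759), nor without the filter on low values (0.0547), and atg-9 was not called without Control 3 (0.0503). Over all 6 fits with 1 library left out, the log2 difference of atg-18 ran from −0.29 to −0.23 and that of atg-9 from −0.51 to −0.28. In each of these fits lgg-1, lgg-2 and atg-3 remained called, atg-3 with an adjusted p of up to 0.0448 in edgeR (without ASP 2). Beside these values, the molting markers were higher in number 3 for 10 of 11 genes (median log2 1.82), the vitellogenins lower for 6 of 6 (−1.44) and the oocyte and germ line markers lower for 7 of 10 and higher for 1 (−0.78). The 10 oocyte and germ line markers summed to 992 and 1081 FPKM in ASP 3 and Control 3 and to 1412 to 1761 in the others. The 8 intestine markers summed to 3361 and 3324 against 3753 to 4029, with 2 lower (ifb-2 and act-5), and no marker of any list was at 0 in all libraries. Muscle markers were higher for 2 of 6 (myo-3 and unc-15), sperm markers for 1 of 9 (spe-9) and neuron markers for 0 of 7. The part of these marker differences in the values of the autophagy genes was not tested.

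Fewer genes were called between numbers 2 and 1. In number 2 against number 1, 0 members were called in edgeR, with 3.84% of all tested genes called, 2.70% higher and 1.14% lower. An unadjusted p under 0.05 was found for 4 of the 10 members and for 17.97% of all tested genes. The 4 were sqst-1 (log2 −0.41, SE 0.10, adjusted p 0.0550), lgg-2 (−0.38, SE 0.10, adjusted p 0.0778), unc-51 (−0.26, SE 0.10) and lgg-1 (−0.21, SE 0.09). All 10 except atg-3 (0.05, SE 0.09) lay below 0, with a median of −0.17, against −0.0042 over all tested genes. DESeq2 called 1 of the 10, sqst-1, and limma on FPKM 0, beside 875 and 297 of the 13790 tested genes. In each, 3 members had an unadjusted p under 0.05, as had 14.96% and 16.5% of all tested genes. sqst-1 and lgg-2 were called in edgeR when either library numbered 3 was left out (sqst-1 adjusted p 0.00351 without ASP 3 and 0.00447 without Control 3) or with no treatment term (0.0429). More genes were called in these settings too: 1546 of 13790 without ASP 3, 1511 without Control 3 and 725 with no treatment term, against 530 in the main fit. hlh-30 stood at −0.02 (SE 0.08). Beside these values, 9 of 11 molting markers were higher in number 2 than in number 1 (median log2 1.33), and 4 of 10 oocyte and germ line markers were lower (median −0.36). The molting markers summed to 77.8 and 84.8 FPKM in ASP 1 and Control 1 and to 158 and 193 in ASP 2 and Control 2. Their part in the values of the autophagy genes was not tested.

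The wider pathway was read from lists of related genes. Of 19 other core autophagy genes, 0 were called in ASP against Control in edgeR, with or without the block (median log2 0.01), and atg-16.2, a partner of the ATG-5 conjugate that helps attach LGG proteins, had the smallest p (6.44 ± 0.263 FPKM in ASP, 5.585 ± 0.8945 in Control, log2 0.20, SE 0.15). In number 3 against numbers 1 and 2, 6 of the 19 were lower and 1 higher (median −0.08), a share of calls near the 38% of all tested genes. The gene farthest below 0 was lgg-3, for the ubiquitin-like ATG12 protein, with 42.25, 42.8 and 22.15 FPKM in ASP and 37.95, 39.3 and 21.5 in Control (difference −0.79, SE 0.12, adjusted p 0.00136). The others were atg-13 (−0.43, SE 0.13) and epg-9 (−0.37, SE 0.10) of the complex with UNC-51, epg-8 (−0.41, SE 0.11), the ATG14 of the BEC-1 complex, epg-6 (−0.33, SE 0.08), a relative of ATG-18, and epg-4 (−0.32, SE 0.09), a membrane protein of the endoplasmic reticulum. epg-2, for a scaffold that brings protein granules to autophagosomes in embryos, was the 1 higher gene (3.53, 4.75 and 5.56 FPKM in ASP, 3.54, 3.58 and 5.68 in Control; difference 0.65, SE 0.15).

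Among 6 genes of selective autophagy and mitophagy, 5 were tested and 0 were called in ASP against Control in edgeR, with allo-1 at log2 −0.09 (SE 0.26). allo-1, for the adaptor that marks paternal mitochondria in the embryo for removal, was lower in number 3 (50.7, 39.4 and 27.1 FPKM in ASP, 47.9, 48.4 and 27.5 in Control; difference −0.67, SE 0.09), as was the mitophagy kinase gene pink-1 (−0.31, SE 0.10). sepa-1, for an adaptor of protein granules in embryos, was not tested, with a mean of 0.0729 FPKM.

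Of 13 partners and upstream regulators of HLH-30, 0 were called in ASP against Control in edgeR, with aak-1, for a catalytic subunit of the energy sensor AMPK, at log2 −0.07 (SE 0.14) and the smallest p with the block at mxl-3 (−0.20, SE 0.21). mxl-3, a repressor that competes with HLH-30 for lipase genes, stood at 78.5, 28.1 and 67.15 FPKM in ASP and 75.7, 56.8 and 51.6 in Control. In number 3, pha-4, for the FoxA factor of foregut development that also drives autophagy genes, was higher (6.20, 4.84 and 8.18 FPKM in ASP, 5.55, 4.72 and 8.91 in Control; difference 0.79, SE 0.12). mxl-2, the Mlx partner of MML-1 (−0.57, SE 0.11), and daf-15, the Raptor of TOR complex 1 (−0.23, SE 0.07), were lower.

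Of 10 genes for lysosomal lipases, a cathepsin and lysosomal membrane proteins, 8 were tested, and 0 were called in ASP against Control in edgeR. The lipase gene lipl-1 had the smallest p (1.54 ± 0.632 FPKM in ASP, 1.02 ± 0.640 in Control, log2 0.62, SE 0.61), and lipl-3 and lipl-4, with means of 0.0622 and 0.413 FPKM, were not tested. In number 3, lipl-5 (−0.37, SE 0.07), cup-5, a lysosomal ion channel (−0.34, SE 0.08), and ctns-1, the cystine exporter (−0.31, SE 0.08), were lower. cpl-1, the cathepsin L protease, was higher, at 490 to 599 FPKM in numbers 1 and 2 and 767 and 791 in number 3 (log2 0.59, SE 0.09). In number 3 the genes called were 2 of 5 for selective autophagy, 3 of 13 for the partners and 4 of 8 here, against 38% of all tested genes. Each of the 4 pathway lists but that of selective autophagy held calls both ways.

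**Figure D4:**
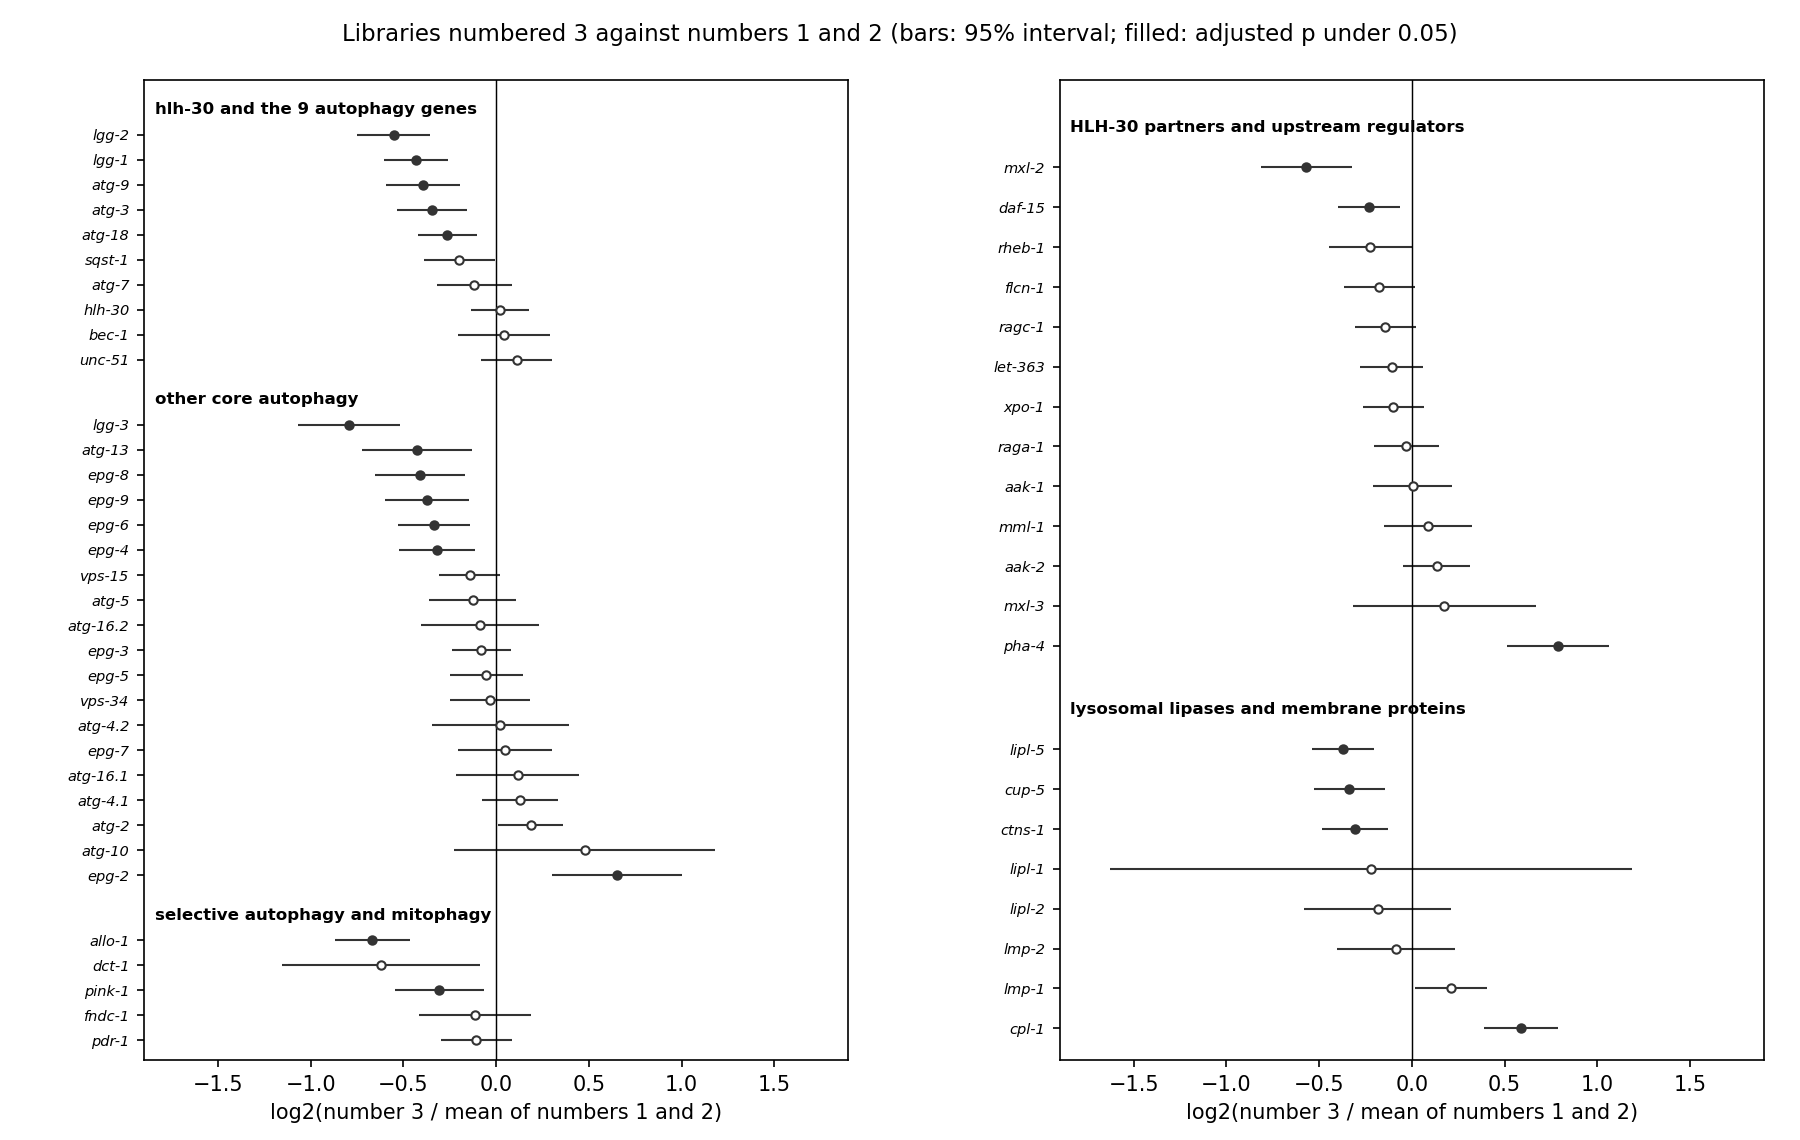
Fitted log2 of number 3 over the mean of numbers 1 and 2 (horizontal axis) for the tested genes of 5 lists, with 95% intervals, filled where the adjusted p is under 0.05. The 5 filled members, from lgg-2 at −0.55 to atg-18 at −0.26, lie below 0, while hlh-30, bec-1 and unc-51 lie near 0.

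The 3 tested genes whose profile over the 6 libraries was nearest to that of hlh-30 were K04C1.2, R151.10 and lim-9. Nearness was the root mean square difference of centred log2(FPKM + 1), which was 0.01, 0.02 and 0.02. The profile of hlh-30 was flat, with a coefficient of variation of 4.83% over the 6 libraries, and 2035 tested genes lay within 0.1 of it. lim-9 had 32.3, 32.1 and 32.5 FPKM in ASP and 32.1, 32.4 and 28.2 in Control, so that in FPKM Control 3 was low for it as for hlh-30. lim-9 was chosen for its likeness to hlh-30 in FPKM, so the shared low value is no separate result. On TMM CPM hlh-30 had 98.07 in Control 2 and 98.92 in Control 3.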

How the data were processed

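Per the file headers, the deposited table holds FPKM, scaled by the authors to transcript length and depth, and a count for each gene in each library. These deposited counts were read as estimated counts. The sources used here name no aligner or counter and do not say whether strand was used. CASAVA 1.4 and mouse builds stand in the submitters' processing notes, whereas the file's chromosomes carry WBcel235 accessions. The RefSeq table of WBcel235 held all 10 genes, 9 with the same start. Coordinates are the file's own.

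Testing covered the 13790 genes whose mean was 1 FPKM or more. edgeR 4.0.16 (quasi-likelihood, TMM, R 4.3.3) was run on the counts, and p-values were adjusted by Benjamini and Hochberg's method over these genes, with a threshold of 0.05. Alternatives used limma 3.58.1 on log2(FPKM + 1), DESeq2 1.42.0, other scalings and filters, and left-out libraries. The fits were tested on simulated data. For ASP against Control these data kept the differences between numbers, and the changes put in were 1.5 or 2 fold. The fit without the block, whose spread holds those differences, recovered no changed gene, while the fit with the block recovered most. Smaller changes were not simulated. The absence of calls, with or without the block, therefore does not show that RNA levels were unchanged.

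Pairing by replicate number was checked first. Across genes, the deviations of ASP and Control libraries of the same number from their group means had correlations of 0.811 (number 1), 0.524 (number 2) and 0.822 (number 3), so the numbers were read as pairing the libraries. The main fit of ASP against Control has no block, so its SEs and intervals also hold the spread between numbers. For lgg-2 the SE was 0.26 in that fit and 0.08 with the block. The SEs and intervals of single genes in this comparison are from the main fit unless the block is named. The permutation test of hlh-30 did not use the pairing either. No source says that the libraries came from separate cultures, so p-values reflect library-to-library spread, which within a number may be only technical. The spread between numbers includes the molting and yolk gene differences given above.

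The 10 genes, the gene lists and the comparison of replicate numbers were chosen with earlier results of these data known. From each pathway list the text names up to 4 genes that pass with the smallest p, or the 1 gene with the smallest p, and the 3 genes nearest to hlh-30 in profile. The other genes of a count, and mxl-3's levels, were named after their values were seen. Marker lists for intestine, muscle, neurons, germ line, sperm, molting and yolk were summed per library.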

Additional observations from a re-analysis of the deposited data

How the results depend on the processing

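In ASP against Control, 0 members were called in any alternative, and the replicate block changed no call (median log2 −0.042). With the block and 1 replicate number left out, 3 genes were called without number 1, 0 without number 2 and 39 without number 3. Without number 2, 5 members lay below 0, and bec-1, atg-9 and lgg-2 turned to 0.020, 0.014 and 0.071. Without number 1, atg-9 turned to 0.017. lgg-2 turned to 0.0036 in limma on FPKM at both pseudocounts and with the block. With 1 library left out, members below 0 ran over 4 to 8 and their median over −0.17 (without Control 3) to 0.053 (without Control 1). So left out, 7 members crossed 0, with unc-51 over −0.13 to 0.033, bec-1 over −0.15 to 0.037, atg-9 over −0.19 to 0.064, atg-3 over −0.21 to 0.0030, lgg-1 over −0.17 to 0.099, lgg-2 over −0.26 to 0.16 and sqst-1 over −0.26 to 0.041.

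In number 3 against numbers 1 and 2, 3072 genes were called without a filter on low values, against 5237. With 1 library left out, 3 (without Control 3) to 6 (without ASP 3) members were called, beside 4405 and 4811 of the 13790 tested genes. hlh-30 and bec-1 turned to −0.074 and −0.054 in limma on FPKM, and ran over −0.015 to 0.056 and −0.14 to 0.22 with 1 library left out. In number 2 against number 1, 530 genes were called, 9 without a filter, 875 in DESeq2, 297 in limma on FPKM, and 78 (without Control 2) to 1546 (without ASP 3) with 1 library left out. The members called were 2 with no treatment term (725 genes in all), 1 in DESeq2 and 0 to 2 with 1 library left out. hlh-30 and atg-9 ran over −0.062 to 0.030 and −0.11 to 0.015. The causes were not tested. A planned count of E-box motifs in promoters was not run, since no promoter sequence was used here. With 2 libraries per number and 3 per group, the spread between few libraries sets the width of the intervals.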
